A study of Mus musculus with 7 samples.

Results

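The promoters of 10 genes of the endoplasmic reticulum (ER) stress response were examined by DNase-Seq in mouse podocytes. The genes were *Ern1*, *Eif2ak3* and *Atf6*, which encode the stress sensors, *Atf4*, *Xbp1* and *Ddit3*, which encode transcription factors, and *Hspa5*, *Hsp90b1*, *Calr* and *Dnajb9*, which encode chaperones and a co-chaperone of the ER lumen. They were chosen by name. For each gene, the peaks overlapping 500 nt on either side of a protein-coding transcription start site (TSS, GENCODE vM21) were taken from 3 peak lists. All 10 genes had such a peak in every list, as did 21835 of 21866 protein-coding genes. Their 43 promoter peaks comprised 13 of 1036304 peaks in the list of normal glucose (NG), 16 of 846027 for high glucose with a control mimic (HG+NT) and 14 of 900109 for high glucose with a miR-93 mimic (HG+miR-93).

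The ER folds secreted and membrane proteins, and unfolded protein in its lumen activates the unfolded protein response. The kinase and RNase IRE1 (*Ern1*) splices *Xbp1* mRNA, the kinase PERK (*Eif2ak3*) slows translation and thereby favours synthesis of ATF4, and ATF6 is cleaved in the Golgi to release a transcription factor. Together these arms raise the synthesis of chaperones, while sustained activity induces CHOP (*Ddit3*), a factor linked to cell death. Podocytes maintain a large secretory and membrane system, and ER stress has been described in them in proteinuric and diabetic kidney disease.

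The cells were a conditionally immortalised mouse podocyte line, growth-arrested and differentiated, so that every sample derived from the same line. NG cells were kept in 5 mM glucose without a mimic. HG+NT cells received 25 mM glucose and 50 nM of a nontargeting mimic, and HG+miR-93 cells 25 mM glucose and 50 nM of a miR-93 mimic, each for 36 h. There were 2 replicates per condition and 1 genomic DNA input, but each condition was analysed here as 1 joint list of peaks. No spread between replicates could therefore be given and no test between conditions was possible. NG and HG+NT differed in both glucose and transfection, whose effects cannot be told apart. In a bulk sample, fewer cells with an open promoter and less opening per cell cannot be told apart either.

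A peak's value is given as its pileup, the number of fragments over its summit brought to the depth of the input. Values of the lists are given in the order NG, HG+NT, HG+miR-93 throughout. Fragments were recovered from each peak's fold and p value, and the lists held 2.24, 3.85 and 5.15 times the depth of the input. The 95% exact Poisson interval of a pileup covers counting error only, and not the choice of the strongest peak. For every gene the promoter peak with the highest pileup was taken in each list, and its percentile was computed over the 21835 genes. The pileup of the median gene was 5.81, 4.93 and 4.86. The median gene had a pileup ratio of 0.894 between HG+NT and NG (log2 -0.16), 0.952 between HG+miR-93 and HG+NT (log2 -0.07) and 0.846 between HG+miR-93 and NG (log2 -0.24), so ratios are also given relative to these.

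The podocyte label was only partly reflected at marker promoters. *Nphs1*, which encodes a protein of the slit diaphragm, stood at percentiles 31.2, 40.2 and 44.5. *Actn4*, an actin crosslinker of the foot process that many cells express, stood at 86.3, 93.1 and 91.7. The median over 5 podocyte markers was 61.6, 73.3 and 64.8. This was higher than the 38.0, 37.6 and 44.5 over 10 markers of other cells (kidney, blood and, with *Alb*, liver). The median ER stress gene, at 95.8, 96.4 and 95.1, ranked above both sets by pileup. Ranked by fold over the input, the 5 podocyte markers had medians of 87.7, 81.6 and 71.4 and the ER stress genes 87.0, 87.4 and 69.6, so the ER stress genes were above them in HG+NT only.

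Most of the ER stress gene promoters had pileups among the highest of all genes in each condition. A percentile of at least 90 was reached by 8, 7 and 6 of the 10 genes, against 10.7%, 9.75% and 10.2% of all genes. Their median pileup was 13.8, 14.0 and 10.5. By pileup, only *Xbp1* in HG+NT lay below the median gene of its list. *Atf4*, *Ddit3*, *Hspa5*, *Hsp90b1* and *Calr* were at pileup percentile 90 or above in all 3 lists. By fold the median percentile of the 10 genes was lower, at 87.0, 87.4 and 69.6. More values then lay below the median gene, namely *Atf6* in all 3 lists, *Eif2ak3* in NG, *Xbp1* in HG+NT, and *Ern1* and *Hsp90b1* in HG+miR-93. The input's local mean at the summits of the 10 genes had a median of 4.4, 4.4 and 4.1 fragments, against 2.58, 2.40 and 2.40 over all genes.

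**Figure D1:**
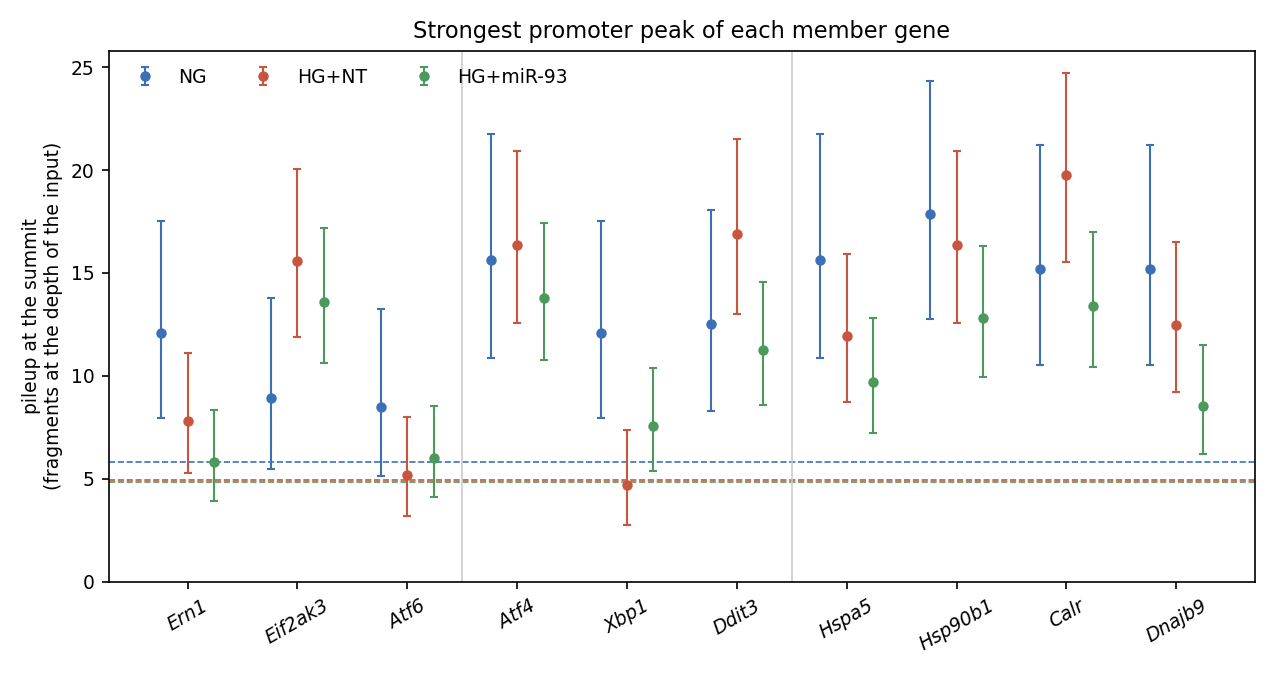
Pileup at the summit of the strongest promoter peak (y axis, fragments at the depth of the input) for the 10 ER stress genes in each of the 3 lists. Bars are 95% exact Poisson intervals, dashed lines the median gene of each list, and grey lines part sensors, transcription factors and chaperones.

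Most intervals of a gene overlap between lists, and those of *Xbp1* in NG and HG+NT do not.

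Promoters rich in CpG dinucleotides tend to be accessible in many cell types. RefSeq promoter windows (GRCm38.p6, 250 bases before and 50 after the start) were matched for 9 of the 10 genes. *Atf6* had no entry. The windows held 10 (*Xbp1*) to 35 (*Dnajb9*) CpG, with a median of 22. The median was 7 over all 32851 windows and 14 over the 16511 genes with a window and a percentile. Of these 16511 genes, the 9731 with at least 10 CpG had median percentiles of 68.3, 68.7 and 67.5. The 9 ER stress genes with a window had medians of 98.1, 97.9 and 96.6, above this CpG-rich group as well. By fold the medians were 88.0, 94.0 and 78.5 for the 9 genes and 64.5, 60.5 and 58.4 for the group.

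Among the sensors, *Eif2ak3* was the gene with the higher pileup under HG. The gene lies at chr6:70844515-70905245 (plus strand). Its RefSeq sequence upstream of the start, chr6:70844265-70844514 on the plus strand, is shown because all 3 summits fell within it, with CCAAT boxes on either strand in capitals.
*Eif2ak3*: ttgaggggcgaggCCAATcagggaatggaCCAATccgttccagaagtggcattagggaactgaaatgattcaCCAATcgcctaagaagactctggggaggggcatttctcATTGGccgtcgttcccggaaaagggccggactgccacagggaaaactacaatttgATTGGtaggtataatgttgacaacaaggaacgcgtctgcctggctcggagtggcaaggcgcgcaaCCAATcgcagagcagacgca
The window held 6 CCAAT boxes, a number reached by 0.0791% of all windows, and *Hsp90b1* had as many. Its strongest peak rested on 20, 60 and 70 fragments, with summits 213, 203 and 124 nt upstream of the TSS, outside the annotated transcripts. In the 3 lists its pileups (with intervals) were 8.93 (5.46 to 13.8), 15.6 (11.9 to 20.1) and 13.6 (10.6 to 17.2). NG was the lowest and both HG lists were higher, while the intervals of all 3 lists overlapped. The percentile was 74.8, 97.9 and 98.9. By fold it was 18.6, 94.0 and 96.9, with an input mean of 6, 5 and 4.2, so NG was lower still. The pileup ratio of HG+NT to NG was 1.74 (exact conditional interval 1.04 to 3.06), or 1.95 relative to the median gene, and that of HG+miR-93 to NG was 1.52 (0.916 to 2.64), or 1.80. The promoters of chromosome 6 had a median pileup of 0.923, 1.00 and 1.04 times that of all genes, and with each pileup divided by its chromosome's median the percentile of *Eif2ak3* was still 18.7 points higher in HG+NT than in NG.

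By percentile, *Ern1* had the opposite order of lists. The gene lies at chr11:106394650-106487852 (minus strand), and its 4 GC boxes (GGGCGG) were the most of any of the 9 windows. Its pileup was 12.1 (7.95 to 17.5), 7.79 (5.26 to 11.1) and 5.83 (3.93 to 8.32). Values thus descended from NG to HG+miR-93, with overlapping intervals, and the percentile was 91.8, 79.3 and 64.8. The summits lay 36 and 32 nt downstream of the TSS in an untranslated exon in NG and HG+NT and 89 nt upstream of another TSS in HG+miR-93. The ratio of HG+miR-93 to NG was 0.483 (0.278 to 0.845), or 0.571 relative to the median gene. The fold was 4.35, 2.93 and 1.37, and the input's local mean at the summit was 2 in NG and HG+NT but 4 in HG+miR-93. By fold the percentile was hence 99.7, 96.0 and 25.1, a wider range than by pileup.

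*Atf6* had the lowest pileup of the sensors in NG and HG+NT. The gene lies at chr1:170704674-170867771 (minus strand). Its pileup was 8.49 (5.11 to 13.3), 5.19 (3.17 to 8.02) and 6.02 (4.09 to 8.55), at percentiles 71.6, 53.4 and 67.5. By fold the percentile was 35.1, 15.8 and 22.2, below the median gene in each list. The NG and HG+miR-93 summits lay 75 and 43 nt upstream of the TSS, whereas the HG+NT summit lay 343 nt downstream in an intron, in another peak. A 242 nt wide HG+NT peak over the TSS had a pileup of 4.93 (2.97 to 7.71). The order of the 3 lists depended on the peaks counted, since with all promoter peaks summed the percentile was 5.85 points higher in HG+NT than in NG.

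Among the transcription factors, *Xbp1* differed most between conditions. The gene lies at chr11:5520659-5525893 (plus strand), and its mRNA is the substrate of IRE1. The summit pileup was 12.1 (7.95 to 17.5), 4.67 (2.77 to 7.39) and 7.58 (5.39 to 10.4), from 27, 18 and 39 fragments. The interval of HG+NT lay below that of NG without overlap, and HG+miR-93 overlapped both. The percentile was 91.8, 44.9 and 83.5. By fold it was 86.0, 43.5 and 52.6, so HG+miR-93 was then 9.13 points from HG+NT and -33.4 points from NG. The ratio of HG+NT to NG was 0.388 (0.201 to 0.730), or 0.433 relative to the median gene, and that of HG+miR-93 to HG+NT was 1.62 (0.906 to 3.01), or 1.70.
The NG and HG+miR-93 summits lay at the same position, 298 nt downstream of the TSS in an untranslated exon, and the HG+NT summit lay 475 nt downstream in a coding exon. The HG+NT peak, chr11:5520618-5522484, also covered the position of the other summits, so its pileup there was at most 4.67. The input's local mean was 4, 2.4 and 4. Both HG lists had a second promoter peak, which had its summit 3639 and 3264 nt upstream, with pileups of 4.41 and 3.50, where NG had 1 peak 7267 nt wide. The size of the difference between HG+NT and NG varied with the peaks counted. It was -46.9 percentile points by the strongest peak and -8.29 points with all promoter peaks summed. The other alternatives gave -42.5 to -59.4 points, and the cause was not tested. For HG+miR-93 this distant peak had nearly the same fold as the one near the TSS, 1.72 in each. Where the peak with the highest fold was taken, the percentile of HG+miR-93 was instead 23.6 points lower than that of HG+NT.
The sequence upstream of the RefSeq start, chr11:5520391-5520640 on the plus strand, is shown because it holds none of the 8 motifs searched.
*Xbp1*: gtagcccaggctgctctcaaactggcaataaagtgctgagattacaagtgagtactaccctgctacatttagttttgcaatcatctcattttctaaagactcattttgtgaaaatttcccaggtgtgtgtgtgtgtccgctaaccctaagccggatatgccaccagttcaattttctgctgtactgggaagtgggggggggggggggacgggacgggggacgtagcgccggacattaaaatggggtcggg
With 10 CpG, the whole *Xbp1* window, including the bases after the start, was the poorest of the 9. No summit of a promoter peak of the gene fell in it.

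*Atf4*, the factor of the PERK arm, had nearly level pileups. The gene lies at chr15:80255184-80257541 (plus strand). Its pileup was 15.6 (10.9 to 21.7), 16.4 (12.6 to 20.9) and 13.8 (10.8 to 17.4), at percentiles 98.5, 98.3 and 99.0. By fold the percentile was 65.3, 77.0 and 78.5, with NG the lowest. All 3 summits lay within 101 nt of a TSS. Chromosome 15 promoters as a whole had a median of 1.15, 1.42 and 1.48 times that of all genes. With each pileup divided by its chromosome's median, the percentile of *Atf4* differed by -0.566 points between HG+NT and NG, -0.213 between the HG lists and -0.779 between HG+miR-93 and NG, in place of -0.229, 0.685 and 0.456. By pileup all of these are below 1 point, and the last 2 have the other direction.

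*Ddit3*, which encodes CHOP, lies at chr10:127290774-127296288 (plus strand). Its pileup was 12.5 (8.31 to 18.1), 16.9 (13.0 to 21.5) and 11.3 (8.56 to 14.6), at percentiles 93.4, 98.5 and 96.6. By fold the percentile was 83.2, 97.1 and 98.6, with HG+miR-93 the highest. By pileup HG+NT was the highest, and all intervals overlapped. The ratio of HG+NT to NG was 1.35 (0.854 to 2.18), or 1.51 relative to the median gene, and that of HG+miR-93 to HG+NT was 0.668 (0.460 to 0.966), or 0.701. The NG and HG+NT summits lay 77 and 195 nt upstream of the TSS, but that of HG+miR-93 lay 1654 nt upstream within a peak 10467 nt wide. The last ratio therefore compares different positions, and with that peak spanning both, the HG+miR-93 pileup at the TSS itself was at most 11.3.

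**Figure D2:**
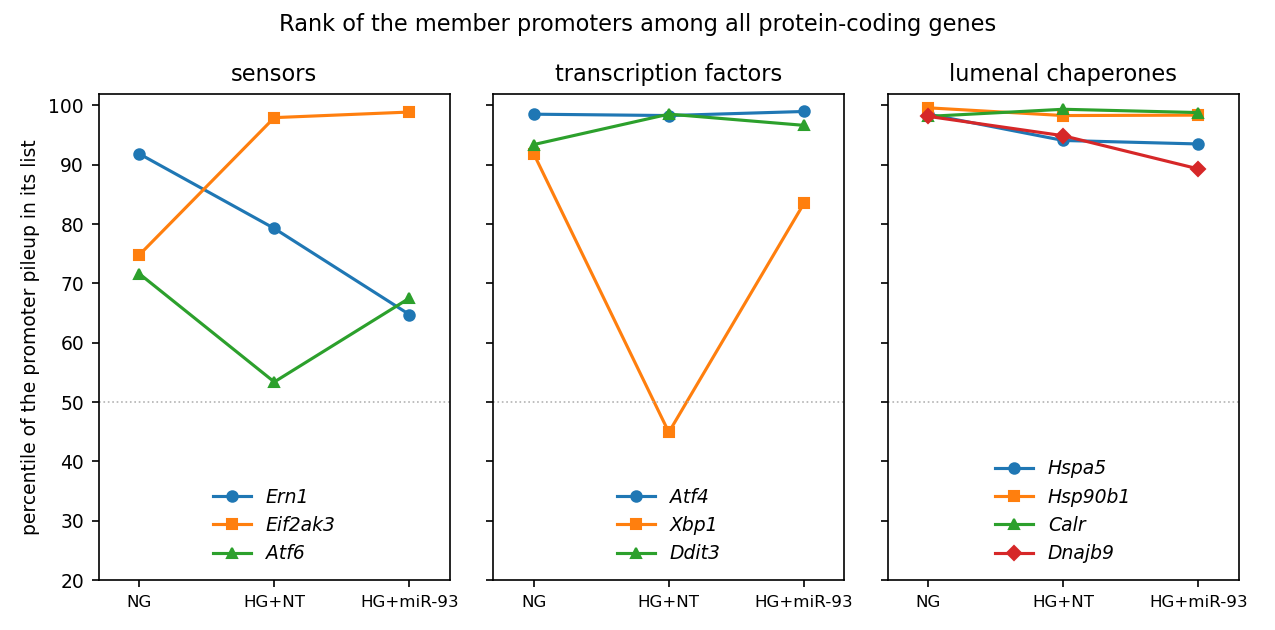
Percentile of each promoter's pileup among 21835 protein-coding genes (y axis) in the 3 lists (x axis), in panels for sensors, transcription factors and chaperones. The chaperones stay between 89.3 and 99.6, while *Eif2ak3* goes from 74.8 to 97.9 and *Xbp1* from 91.8 to 44.9 between NG and HG+NT.

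Chaperone genes are known targets of ATF6 through the ER stress response element (ERSE), which was searched as CCAAT, then any 9 bases, then CCACG, on both strands. NF-Y binds its first part and ATF6 its second. The element was found in 3 of the 9 matched windows, those of *Hspa5*, *Hsp90b1* and *Calr*, and in 39 of 32851 windows overall (0.119%). The 4 matches are shown with flanks, each 30 bases long and read on the strand of the element, with its fixed parts in capitals. They lie at chr2:34772020-34772049 on the plus strand, chr10:86705632-86705661 on the minus strand, chr10:86705528-86705557 on the plus strand and chr8:84847070-84847099 on the plus strand.
*Hspa5*: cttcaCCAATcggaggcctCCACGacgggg
*Hsp90b1*, distal: caagcCCAATcgcaaggagCCACGcttcgg
*Hsp90b1*, proximal: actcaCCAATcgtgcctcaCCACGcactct
*Calr*: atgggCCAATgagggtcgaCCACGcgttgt
The proximal *Hsp90b1* match and the *Calr* match are on the strand opposite to the gene. All 4 lay inside the strongest promoter peak in each of the 3 lists. These peaks were 1610 to 4636 nt wide and covered the whole searched window, so any match in it would lie inside them. Such matches describe the letters of a window and do not show binding.

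None of the 9 windows held ERSE-II (ATTGG, then any base, then CCACG), the UPRE core TGACGTGG, the cAMP response element TGACGTCA or the C/EBP-ATF element TTGCATCA, which were found in 0.0365%, 0.676%, 1.79% and 0.895% of all windows. The CCAAT box, which is also the first part of the ERSE, was found in 7 of the 9 windows against 37.4% of all windows, and the GC box in 5 against 35.7%. *Calr* alone had TATAAA, at a position downstream of its start, against 13.6% of all windows.

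*Hspa5* encodes BiP, the lumenal chaperone that binds the sensors, and lies at chr2:34771970-34777547 (plus strand). Its pileup was 15.6 (10.9 to 21.7), 11.9 (8.75 to 15.9) and 9.72 (7.21 to 12.8), at percentiles 98.5, 94.1 and 93.5. NG was the highest, and the intervals overlapped. The ratio of HG+miR-93 to NG was 0.622 (0.396 to 0.986), or 0.735 relative to the median gene. The summits lay 77, 1 and 111 nt upstream of the middle of the ERSE, which itself lies between the 2 annotated start positions of the gene.

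*Hsp90b1* encodes GRP94, the HSP90 of the ER, and lies at chr10:86690209-86705509 (minus strand). Its pileup was 17.9 (12.8 to 24.3), 16.4 (12.6 to 20.9) and 12.8 (9.92 to 16.3), and its NG value was the highest of the 10 genes in that list. The percentile was 99.6, 98.3 and 98.4. By fold it was 88.0, 63.3 and 39.1, with an input mean of 6, 8 and 8. The summits lay 379, 205 and 199 nt upstream of the main TSS. This TSS was 302 nt from the TSS of the divergent gene *Ttc41*, so the accessibility of these promoters cannot be told apart. From the middle of the distal ERSE the summits lay 241, 67 and 61 nt upstream. From that of the proximal ERSE they lay 346, 172 and 166 nt upstream, farther than at *Hspa5* and *Calr*. Around a second, internal TSS of *Hsp90b1* no list had a pileup above 3.57.

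*Calr* encodes calreticulin, a lectin chaperone that binds calcium, and lies at chr8:84841850-84846934 (minus strand). Its sequence upstream of the start, chr8:84846935-84847181 on the minus strand, is shown because it holds the summit of the peak with the highest −log10 p of the 43. The fixed parts of the ERSE, here on the opposite strand, are in capitals.
*Calr*: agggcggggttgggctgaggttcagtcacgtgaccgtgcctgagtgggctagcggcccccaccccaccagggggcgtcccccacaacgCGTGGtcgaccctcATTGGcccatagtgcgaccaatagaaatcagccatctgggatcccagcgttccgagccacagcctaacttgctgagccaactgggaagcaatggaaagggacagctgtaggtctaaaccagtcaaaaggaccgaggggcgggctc
The pileup was 15.2 (10.5 to 21.2), 19.7 (15.5 to 24.7) and 13.4 (10.4 to 17.0), at percentiles 98.1, 99.3 and 98.8. HG+NT was the highest and the intervals overlapped, with a ratio of HG+miR-93 to HG+NT of 0.679 (0.483 to 0.954), or 0.713 relative to the median gene. Its HG+NT peak had a −log10 q of 2.46 and was the only one of the 43 above 2, a value reached by 94 peaks of that list. In NG the −log10 q was 1.58, and in HG+miR-93 it was 0. By −log10 p the *Calr* peak ranked 86, 76 and 55. The summits lay 29 and 10 nt upstream of the middle of the ERSE in NG and HG+NT and 59 nt downstream of it in HG+miR-93. Promoters of chromosome 8 had a median of 1.31, 1.47 and 1.48 times that of all genes. Over its chromosome's median, the percentile of *Calr* differed by 7.39 points between HG+NT and NG and by -3.39 between HG+miR-93 and HG+NT, in place of 1.20 and -0.556. The directions of all 3 comparisons were the same, and the order with HG+NT highest was kept.

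*Dnajb9* encodes ERdj4, a co-chaperone of BiP, and lies at chr12:44205559-44210326 (minus strand). Its pileup was 15.2 (10.5 to 21.2), 12.5 (9.19 to 16.5) and 8.55 (6.21 to 11.5), at percentiles 98.1, 94.9 and 89.3. The pileups descended from NG to HG+miR-93 with overlapping intervals, as did those of *Ern1*, *Hspa5* and *Hsp90b1*. The pileup of the median gene, at 5.81, 4.93 and 4.86, had this order too. The ratio of HG+miR-93 to NG was 0.563 (0.352 to 0.908), or 0.666 relative to the median gene.

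The position of the summits was more alike between lists than over all genes. The strongest summits of the 3 lists lay within 200 nt of each other at 8 of the 10 genes, all but *Atf6* and *Ddit3*, against 22.2% of all genes. At the 1165 genes with a percentile of at least 90 in all 3 lists the share was 64.5%, so that strong promoters in general had aligned summits. The span was smallest at *Dnajb9*, *Calr* and *Eif2ak3*, with 87, 88 and 89 nt. The summit lay within 500 nt of a TSS for all 10 genes in NG and HG+NT and for 9 in HG+miR-93, against 64.3%, 62.1% and 62.0% of all genes.

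**Figure D3:**
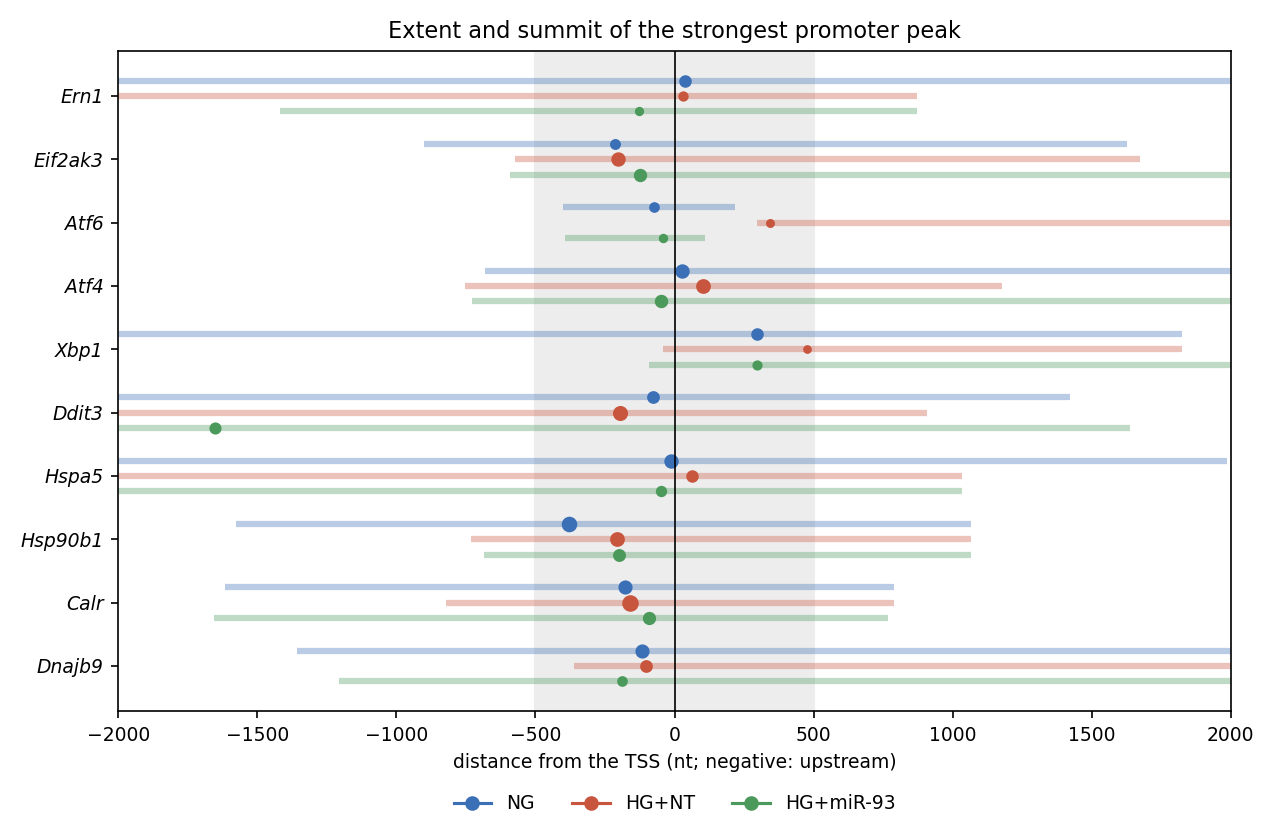
Extent (bars) and summit (dots, larger with a higher pileup) of the strongest promoter peak of each ER stress gene in the 3 lists, by distance from the TSS nearest to the NG summit (x axis, nt). The shaded band is 500 nt either side of the TSS, and bars are clipped at 2000 nt.

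The summits of 8 of the 10 genes lie within 200 nt of each other, while those of *Atf6* and *Ddit3* span 418 and 1577 nt.

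In HG+NT compared with NG, *Eif2ak3* had a higher pileup by at least 1.5-fold, while *Ern1*, *Atf6* and *Xbp1* had a lower one. These are 1 and 3 of the 10 genes, against 5.30% and 16.9% of all genes in the same directions. Relative to the median gene, *Eif2ak3* and *Ddit3* were at least 1.5-fold higher (2 of 10, against 9.92% of all genes) and *Xbp1* alone lower (1 of 10, against 9.98%). Intervals that did not overlap were found for *Xbp1*, 1 gene of 10 in the lower direction, where 1.00% of all genes had them, and for 0 of 10 in the higher direction (0.234% of all genes). The percentile was higher for 3 of the 10 genes, *Eif2ak3*, *Ddit3* and *Calr*, against 49.6% of all genes. The count was 3 to 6 under the alternatives that kept all 10 genes, against 49.1% to 51.2% of all genes. It was 2 of 9 where summits had to lie within 500 nt of a TSS, which leaves out *Ddit3*, against 50.9% of 12274 genes. The median difference in percentile was -2.28 points for the 10 genes and -0.163 over all genes. The pileup itself was lower at 6 of the 10 genes, against 64.4% of all genes, with a median ratio of 0.868 against 0.894.

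HG+miR-93 and HG+NT differ in the mimic alone. *Xbp1*, and no other of the genes, had a higher pileup by at least 1.5-fold (1 of 10, against 2.16% of all genes), and none had a lower one (0 of 10, against 5.66%), although *Ddit3*, *Calr* and *Dnajb9* were close to it with ratios of 0.668, 0.679 and 0.686. None of the genes had intervals that did not overlap, where 0.0824% of all genes had them in the higher and 0.343% in the lower direction. The percentile was higher for 5 of 10 genes, against 50.0% of all genes. With the pileups of all promoter peaks summed it was higher for 1 of 10, against 50.1%. The pileup itself was lower at 8 of the 10 genes, against 60.3% of all genes, the exceptions being *Xbp1* and *Atf6*. The median ratio was 0.799 against 0.952 over all genes, most of which had lower pileups than these genes. By rank the difference was small, with a median of -0.243 percentile points for the 10 genes and 0.00458 over all genes. *Eif2ak3*, *Atf4* and *Hsp90b1* had a lower pileup but a slightly higher percentile.

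HG+miR-93 and NG differ in glucose and mimic together. Compared with NG, *Eif2ak3* was at least 1.5-fold higher in HG+miR-93 (1 of 10, against 4.26% of all genes). *Ern1*, *Xbp1*, *Hspa5* and *Dnajb9* were at least 1.5-fold lower (4 of 10, against 22.1%), and relative to the median gene *Ern1* and *Dnajb9* were (2 of 10, against 9.43%). No intervals were apart, against 0.114% of all genes in the higher and 1.31% in the lower direction. The percentile was higher for 4 of 10 genes, against 49.6% of all genes. The pileup was lower at 9 of the 10 genes, against 69.8% of all genes, with a median ratio of 0.714 against 0.846. The median difference in percentile was -2.68 points for the 10 genes and -0.158 over all genes. These 3 comparisons share their lists in pairs and are not independent of each other.

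A value in HG+NT higher or lower than in both NG and HG+miR-93 was found by percentile for 6 of the 10 genes, against 60.9% of all genes. Under the alternatives it was found for 4 to 7 genes, against 60.3% to 63.3% of all genes. *Ddit3* and *Calr* were highest in HG+NT, and *Atf6* and *Xbp1* were lowest. *Atf4* and *Hsp90b1* were also counted as lowest, but their percentiles were within 98.3 to 99.6 in every list. By pileup, *Atf4* was highest in HG+NT and *Hsp90b1* lay between the other lists. *Ern1*, *Hspa5* and *Dnajb9* were lowest in HG+miR-93 by both measures, whereas *Eif2ak3* was highest there by percentile and highest in HG+NT by pileup.

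**Figure D4:**
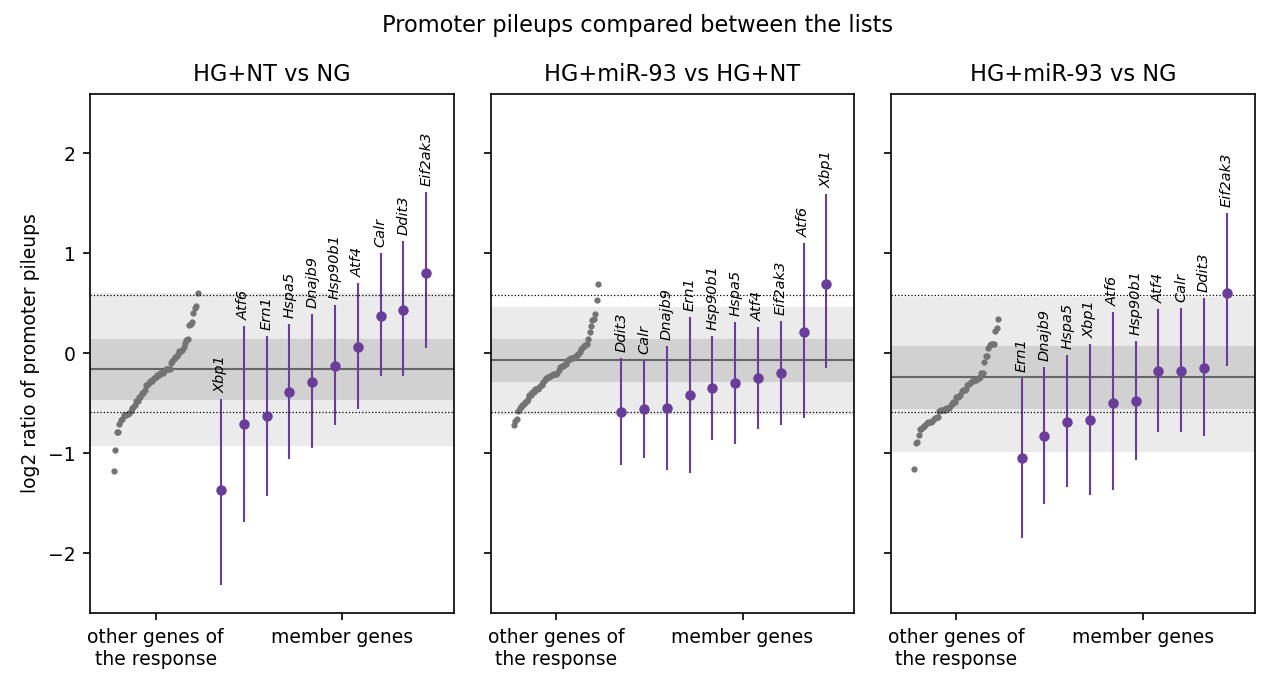
Log2 ratio of promoter pileups (y axis) in the 3 comparisons for the 10 ER stress genes, with exact conditional 95% intervals, and for 61 other genes of the unfolded protein response (grey dots, in order of size). The line and grey bands are the median, the middle 50% and the middle 90% of all genes, and dotted lines mark 1.5-fold in either direction.

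The lowest log2 ratio of HG+NT over NG was -1.37 at *Xbp1* and the highest 0.80 at *Eif2ak3*, outside the range of the 61 other genes.

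The other genes of the unfolded protein response were examined in 4 lists of 61 genes in all. Their median percentile was 83.9, 82.4 and 78.6, below that of the 10 ER stress genes. From NG to HG+NT, 1 gene was at least 1.5-fold higher and 12 were lower, against 5.30% and 16.9% of all genes, so the lower count lies near the share of all genes. The highest ratio was that of *Creld2*, a folding enzyme gene of chromosome 15, with pileups of 11.6 and 17.7, and the lowest that of *Ssr1*, which encodes a subunit of the translocon-associated complex, with 11.2 and 4.93. The intervals of each gene overlapped. The HG+miR-93 pileup of *Ssr1* was 7.97.

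From HG+NT to HG+miR-93, 1 of the 61 genes (*Ssr1*) was at least 1.5-fold higher and 3 were lower, against 2.16% and 5.66% of all genes. The lowest ratio was that of *Atf3*, a transcription factor gene downstream of ATF4, with pileups of 19.2 (15.1 to 24.1) and 11.7 (8.90 to 15.0), whose intervals did not overlap, as for 0.343% of all genes in this direction. The NG pileup of *Atf3* was 13.8 (9.41 to 19.7), so HG+NT was the highest of the 3 lists. Between NG and HG+miR-93, 0 genes were higher and 18 lower by at least 1.5-fold, against 4.26% and 22.1% of all genes. The highest ratio was that of *Pdia4*, a disulphide isomerase gene of chromosome 6, with 11.6 and 14.8, and the lowest that of *Traf2*, whose product binds IRE1, with 13.4 (9.04 to 19.1) and 6.02 (4.09 to 8.55), whose intervals did not overlap, as for 1.31% of all genes.

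By list, the chaperone and foldase genes had 1 of 16 at least 1.5-fold higher and 3 lower in HG+NT than in NG, and the genes of ER-associated degradation 0 and 2 of 12. The translation arm had 0 and 1 of 14, and the other sensors, processing and translocation genes 0 and 6 of 19, where 5.30% of all genes were higher and 16.9% lower. In HG+miR-93 compared with HG+NT the counts in that order were 0 and 0, 0 and 0, 0 and 3, and 1 and 0, against 2.16% and 5.66%. In HG+miR-93 compared with NG they were 0 and 5, 0 and 2, 0 and 4, and 0 and 7, against 4.26% and 22.1%.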

How the data were processed

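The deposited values were peak lists of the authors, made per the labels with CASAVA 1.8.2, TrimGalore!, Bowtie and MACS2 on mm10, with 1 genomic DNA input and 1 joint list per condition of 2 replicates. The authors' peak caller computed the fold enrichment of each peak over the local input with 1 added to both parts, as deposited. It also computed the −log10 p and −log10 q values, as deposited by the authors, from a Poisson model of the summit. Here the fragment count and input mean at each summit were solved from fold and p, with a fragment length of 200 nt assumed, and 1 solution was found for 100.0%, 100.0% and 99.83% of peaks (NG, HG+NT, HG+miR-93). Pileups, intervals, percentiles and ratios were computed in Python 3.11.15 (scipy 1.17.1, pandas 2.3.3, numpy 2.4.6) and drawn with matplotlib 3.10.9. Named genes are the 10 members, genes of the lists, and the other gene with the highest or lowest ratio in each comparison. The members and lists were chosen with earlier results of these data known. Of the alternatives, 8 were listed, and 2 more and the 200 nt summit rule were added after the values were seen. Sequences are RefSeq promoters of GRCm38.p6, searched on both strands. Of 7 podocyte markers listed, 2 are not reported. A second annotated gene entry at *Ddit3* takes the same peaks.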

Additional observations from a re-analysis of the deposited data

How the results depend on the processing

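Of the alternatives, fold ranks placed 5 of the 10 genes at a higher percentile under HG+NT than under NG (50.2% of all genes), and summed pileups 6 (50.2%), against 3. Between HG+miR-93 and HG+NT, summed pileups gave 1 (50.1%), against 5. At a ratio of 1.5, ratios over the median gene gave 2 genes higher and 1 lower in HG+NT than in NG (9.92% and 9.98% of all genes), and pileups over the chromosome's median also 2 and 1 (9.86% and 8.48%), against 1 and 3. The chromosome's median gave 1 gene (*Ddit3*) with HG+miR-93 below HG+NT (5.38%), against 0. For HG+miR-93 below NG, the median gene gave 2 (9.43%) and the chromosome's median 1 (11.5%), against 4. Dividing by a median below 1 raises every ratio, and for the rest the cause was not tested.

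*Ern1*, *Eif2ak3*, *Xbp1* and *Hsp90b1* kept the direction of HG+NT over NG in 8 of 8 alternatives, and *Ddit3* in 7 of 7, but the size varied. *Xbp1* differed by -8.29 points with summed pileups, against -46.9, where NG has 1 wide peak and HG+NT 2 peaks. *Eif2ak3* differed by 75.4 points by fold, against 23.1, and *Hsp90b1* by -24.7, against -1.30. Others turned, namely *Atf6* (5.85 points, summed), *Atf4* (11.7 by fold, 10.1 by −log10 p, 4.99 summed), *Hspa5* (0.795 by fold), *Calr* (-0.192 by −log10 p) and *Dnajb9* (4.41 summed, 0.694 over the chromosome's median). In HG+miR-93 over HG+NT the direction turned for *Xbp1* (-23.6, highest fold), *Atf6* (-7.78, summed) and *Hsp90b1* (-24.2 by fold, -37.3 by −log10 p), and under at least 1 alternative also for *Eif2ak3*, *Atf4*, *Ddit3*, *Hspa5* and *Calr*. In HG+miR-93 over NG it turned for *Xbp1* (5.58, summed), *Atf4* and *Calr*. The cause was not tested.

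No paired analysis was possible because each condition had 1 pooled list. Replicates could not be left out, as no values of single replicates were analysed. The lists differ in depth, and few peaks passed a −log10 q of 2 (73, 94 and 1), so most values rest on peaks that the caller did not separate from the input at that level. The gene value is the strongest of several peaks, which can lie at different positions in the lists. Accessibility was measured, and neither expression nor splicing of these genes was.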
